A study of Mus musculus with 2 samples.

Results

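The 53 genes described here act in DNA replication or in mitosis, and were taken by symbol from the 32285 genes of the deposited matrix. All 53 were found. They were divided into 25 members that act before or during S phase, the phase of DNA synthesis (S members), and 28 that act in chromosome condensation, spindle work and division (mitotic members). The nuclei came from frozen liver of mice with hepatocellular carcinoma (HCC), from a microdissected area of tumour left as residual disease. The labels list 2 samples of 1 group, named MRD-HCC 1 and MRD-HCC 2, and name no strain, genotype, transgene, age or treatment. The deposited barcodes form 1 matrix and name no sample, so all nuclei were treated as 1 pooled sample, without replicates and without a test. No tumour-free or untreated group was analysed here.

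A cell that is to divide first loads a ring-shaped helicase, built from Mcm2 to Mcm7, onto its DNA, then copies the DNA and, after a gap, condenses and separates the chromosomes. Transcription factors of the E2F family switch on many replication genes, whereas many mitotic genes are held off in resting cells and released later through a promoter element called CHR. Adult liver cells seldom divide, and tumour cells that persist can be resting or dividing, which the RNA of these genes helps to tell apart.

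Of the 17169 deposited barcodes, 16411 passed the filters, and 9632 of these held at least 2000 unique molecular identifiers (UMIs), each standing for 1 captured RNA molecule. Every such nucleus was thinned at random to 2000 UMIs, so that shares of positive nuclei could be compared between cell types of unequal depth. Nuclei were gated by marker genes. A nucleus entered a gate when the UMIs of 1 lineage's markers, and of no other's, exceeded what free RNA in the droplets would give. Whether the matrix holds both labelled samples is not stated in the labels or headers. The gates held 760 hepatocyte nuclei, 2621 Pkhd1-high and 911 Ccnd3-high tumour nuclei, 666 endothelial, 647 stellate, 360 fibroblast, 118 pericyte and smooth muscle, 106 mesothelial, 194 macrophage, 61 T cell and 21 B cell nuclei. A further 2838 nuclei passed no list and 329 passed lists of more than 1 lineage. The tumour gates are named for Pkhd1, the fibrocystin gene, and for Ccnd3, the cyclin D3 gene, which mark them. Both tumour marker lists counted as 1 lineage. A nucleus that passed the Pkhd1-high list entered that gate even if it also passed the Ccnd3-high list. The Ccnd3-high gate holds the tumour nuclei that did not pass the Pkhd1-high list. Markers of the Ccnd3-high list summed to 7024 CPM in Pkhd1-high and 9889 CPM in Ccnd3-high nuclei. Ccnd3 stood at 5787 CPM in Pkhd1-high, 8164 in Ccnd3-high and 355 CPM in hepatocyte nuclei, and Cps1, the urea cycle gene, at 221, 315 and 3925 CPM, as the gates were built to give. Before thinning the median depth ran from 3049 UMIs in T cell nuclei to 16071 in hepatocyte nuclei, with 6241 in Pkhd1-high and 5070 in Ccnd3-high nuclei. Free RNA was measured by the UMIs of an erythroid list, Hba-a1, Hba-a2, Hbb-bs, Hbb-bt, Alas2 and Slc4a1, called haemoglobin UMIs below. Haemoglobin UMIs stood at 14.9% of their level in empty droplets in the hepatocyte gate, 19.7% in Pkhd1-high, 24.0% in Ccnd3-high, 36.6% in endothelial and 40.5% in macrophage nuclei. Levels are given as CPM, a gene's UMIs scaled to an equal total per group, and ranges in brackets are exact 95% intervals, which cover counting error in these pooled nuclei only.

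The promoter sequences of the members show the elements named above, and a few are printed because their members carry the main patterns below. RefSeq start sites on GRCm38.p6 were matched for 46 of the 53 members, with 50 windows, 4 members having 2. Mcm4, Gins2, Pole, Tpx2, Ccna2, Smc4 and Aurkb are named only. The words searched, on both strands, were TTTCCCGC, TTTCGCGC, TTTGCCGC and TTTGGCGC for E2F, TTTGAA and TTCGAA for CHR, and CCAAT, and neighbouring words may overlap. In the 250 bases before the start, an E2F word stood in 9 of 24 S windows (37.5%), in 2 of 26 mitotic windows (7.69%) and in 1.86% of all 32851 windows. From 100 bases before to 50 after the start, a CHR word stood in 23 of 26 mitotic windows (88.5%), in 3 of 24 S windows (12.5%) and in 8.59% of all windows. Over the 250 bases before the start, CHR words stood in 50% of mitotic, 16.7% of S and 17.1% of all windows, and E2F words over the shorter window in 29.2% of S, 7.69% of mitotic and 1.27% of all windows. CCAAT was shared by both lists, with 79.2% of S, 80.8% of mitotic and 33.8% of all windows over 250 bases. CHR and CCAAT stood together in 57.7% of mitotic, 4.17% of S and 2.09% of all windows of the shorter kind. These matches describe letters and do not show binding.

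Shown are the 150 bases before the RefSeq start, 5′ to 3′ on the gene's strand, with E2F words in capitals for S members and CHR words in capitals for mitotic members. Mcm6 (chr1:128359706-128359855, minus strand), a helicase subunit, held 3 E2F words, of which 2 overlap. Dtl (chr1:191575545-191575694, minus) encodes a ubiquitin ligase adaptor of S phase and held 1, directly before its start. Pola1 (chrX:93632156-93632305, minus), the primase-bound polymerase subunit that begins new strands, held 1. Mcm10 (chr2:5012792-5012941, minus), which helps to fire the helicase, held 0, and is shown because its level departed from those of most other S members. Top2a (chr11:99024190-99024339, minus), which untangles DNA, held 3 CHR words, Mki67 (chr7:135716380-135716529, minus), which coats mitotic chromosomes, held 2, and Kif11 (chr19:37376232-37376381, plus), the motor that pushes spindle poles apart, held 1.
Mcm6: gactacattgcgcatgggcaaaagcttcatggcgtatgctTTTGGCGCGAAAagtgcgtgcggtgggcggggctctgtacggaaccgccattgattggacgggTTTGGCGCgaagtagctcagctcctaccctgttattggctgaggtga
Dtl: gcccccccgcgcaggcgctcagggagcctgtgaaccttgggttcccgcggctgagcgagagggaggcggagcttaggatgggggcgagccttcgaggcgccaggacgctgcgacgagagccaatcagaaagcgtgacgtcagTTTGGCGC
Pola1: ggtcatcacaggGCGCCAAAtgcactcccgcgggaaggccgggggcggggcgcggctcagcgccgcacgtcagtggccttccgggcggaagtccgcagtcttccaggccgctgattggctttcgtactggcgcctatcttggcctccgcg
Mcm10: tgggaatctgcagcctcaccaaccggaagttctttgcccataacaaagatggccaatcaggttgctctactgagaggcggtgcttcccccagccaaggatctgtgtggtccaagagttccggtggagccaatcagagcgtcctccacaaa
Top2a: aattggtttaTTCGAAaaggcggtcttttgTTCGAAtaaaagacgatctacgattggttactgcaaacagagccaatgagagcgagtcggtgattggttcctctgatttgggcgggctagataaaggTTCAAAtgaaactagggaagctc
Mki67: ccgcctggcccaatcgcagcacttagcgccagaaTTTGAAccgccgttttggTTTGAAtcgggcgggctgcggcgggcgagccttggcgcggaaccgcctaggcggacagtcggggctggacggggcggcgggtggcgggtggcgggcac
Kif11: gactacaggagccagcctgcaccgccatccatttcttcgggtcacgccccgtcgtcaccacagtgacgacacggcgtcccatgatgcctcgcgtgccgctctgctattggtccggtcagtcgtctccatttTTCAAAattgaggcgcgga

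Members of both lists were detected in more tumour nuclei than hepatocyte nuclei. At least 2 S members were seen in 14.7% (13.4 to 16.1) of Pkhd1-high nuclei, 10.98% (9.02 to 13.2) of Ccnd3-high nuclei and 4.08% (2.79 to 5.74) of hepatocyte nuclei. The hepatocyte value depended on the random thinning, and over 20 draws it had a median of 7.18% and ran from 4.08 to 8.48%, against 12.8 to 14.9% in Pkhd1-high nuclei. At least 2 mitotic members were seen in 6.98% (6.04 to 8.03) of Pkhd1-high, 4.83% (3.53 to 6.43) of Ccnd3-high and 1.58% (0.819 to 2.74) of hepatocyte nuclei. Other cells of the area held them as well. Macrophage nuclei stood at 14.4% (9.81 to 20.2) for S and 8.25% (4.79 to 13.1) for mitotic members, endothelial nuclei at 6.76% (4.97 to 8.94) and 3.15% (1.96 to 4.78), and stellate nuclei at 6.65% (4.85 to 8.85) and 4.17% (2.77 to 6.01). T cell nuclei stood at 16.4% (8.15 to 28.1) and 9.84% (3.70 to 20.2), from 61 nuclei. B cell nuclei stood at 9.52% (1.175 to 30.4) for both lists, from 21 nuclei. The intervals of the macrophage, T cell and B cell gates overlap that of the Pkhd1-high gate for both lists. In mesothelial nuclei 0 of 106 held 2 mitotic members, which allows a share of up to 2.83%, taking 3 counts as the limit that a count of 0 allows.

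**Figure D1:**
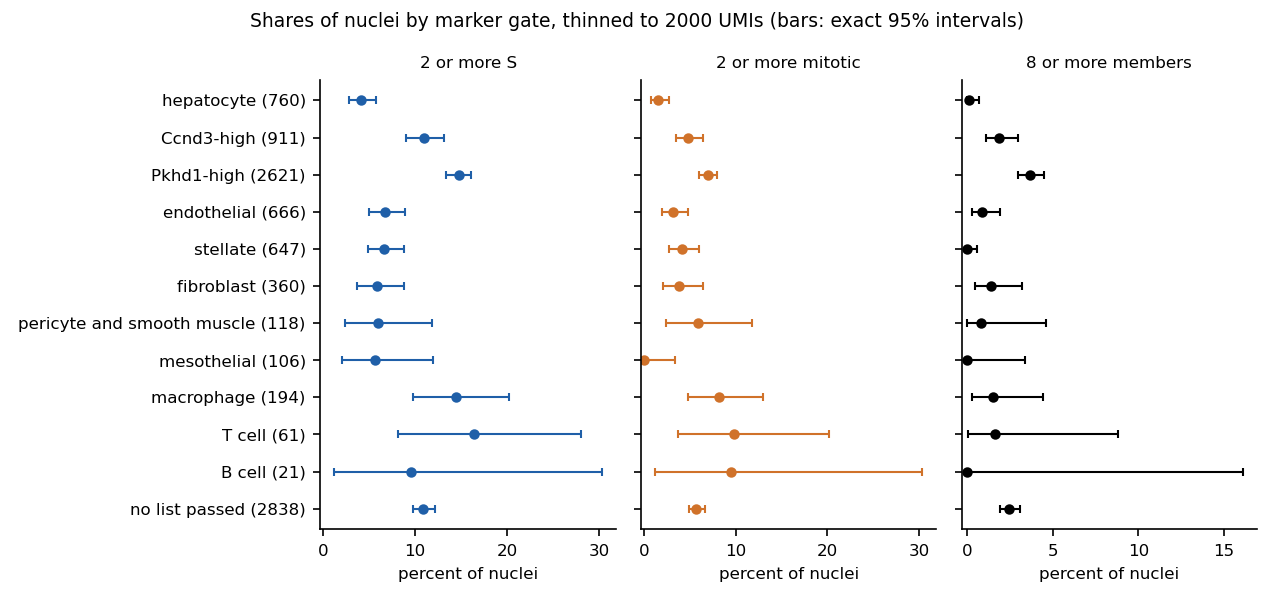
Percent of nuclei (horizontal axes) with at least 2 S members, at least 2 mitotic members, or at least 8 members of either list, for each marker gate, with the number of nuclei in brackets. Points are shares after 1 thinning to 2000 UMIs and bars exact 95% intervals, which do not cover the thinning. Pkhd1-high nuclei stand at 14.7, 6.98 and 3.70% and hepatocyte nuclei at 4.08, 1.58 and 0.132%. Over 20 draws the S share ran from 4.08 to 8.48% (median 7.18%) in hepatocyte and from 12.8 to 14.9% in Pkhd1-high nuclei.

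Free RNA itself held these transcripts and sets a floor for such shares. The S members summed to 283 CPM and the mitotic members to 246 CPM in empty droplets. At the haemoglobin shares above, free RNA would give 36.7 of the 74.3 CPM of mitotic members in hepatocyte nuclei (49.3%), 48.3 of 368 CPM (13.1%) in Pkhd1-high, 59.0 of 228 CPM (25.9%) in Ccnd3-high, 89.8 of 216 CPM (41.5%) in endothelial and 99.4 of 296 CPM (33.5%) in macrophage nuclei. For Top2a and Mki67 in hepatocyte nuclei, it would give 3.83 and 2.88 CPM, where 4.61 and 1.32 CPM were measured. The few UMIs of both genes in hepatocyte nuclei were near or below the free RNA level.

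Summed over the list, S members stood at 493 CPM in Pkhd1-high and 232 CPM in hepatocyte nuclei, a ratio of 2.13 (1.91 to 2.39). This ratio also moved with the random thinning. Over 20 draws it had a median of 1.96 and ran from 1.828 to 2.135, so the draw shown lay near the top. Without Pola1, which gave 1214 of the 2586 S UMIs in Pkhd1-high nuclei, the ratio in the draw shown was 1.46 (1.28 to 1.67). Mcm10, the S member that was lower in Pkhd1-high nuclei, weighed on that value. It gave 129 of the 272 S UMIs left in hepatocyte nuclei and 57 of the 1372 left in Pkhd1-high nuclei. The mitotic members stood at 368 and 74.3 CPM, a ratio of 4.95 (4.09 to 6.04), which was 8.98 with the free RNA share taken out of the members and of the total, and 7.98 over all UMIs without thinning. Over the 20 draws the mitotic ratio had a median of 4.45 and ran from 3.78 to 5.29. In the Ccnd3-high gate the ratios to hepatocyte nuclei were 1.60 (1.40 to 1.82) for S and 3.06 (2.48 to 3.81) for mitotic members. Over the draws these had medians of 1.48 (1.27 to 1.76) and 3.06 (2.53 to 3.84), with the lowest and highest draw in brackets. The S ratio was not particular to the tumour gates. It was 2.13 (1.77 to 2.54) in macrophage and 2.19 (1.65 to 2.88) in T cell nuclei, and 1.80 and 1.74 without Pola1. In the remaining non-tumour gates it ran from 0.75 in pericyte and smooth muscle to 1.13 in B cell nuclei. The mitotic ratio was 3.99 in macrophage and 3.20 in T cell nuclei. In B cell nuclei it was 6.405 (3.77 to 10.4), from 20 UMIs. Among the members with 20 or more UMIs over both gates, 17 S members were at least 2-fold higher in Pkhd1-high than in hepatocyte nuclei, 1 was at least 2-fold lower and 5 lay between, and 22 mitotic members were higher, 0 lower and 2 between. Of all 13258 genes with as many UMIs, 26.2% were at least 2-fold higher and 12.6% lower, with a median log2 ratio of 0.32, against 2.09 for the S and 2.80 for the mitotic members. The minimum keeps genes that are abundant in either gate, so these counts describe the members and support nothing further. Mcm5, Cdc6, Ccna2, Ccnb1, Aurkb and Plk1 were too sparse for it.

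Against Ccnd3-high nuclei the Pkhd1-high gate held 1.33 times (1.23 to 1.45) the S level and 1.62 times (1.45 to 1.80) the mitotic level. There 4 of 24 S members (Uhrf1, Clspn, Dtl and Cdc6) and 9 of 25 mitotic members were at least 2-fold higher and 0 lower, where 4.27% of all genes were higher and 4.06% lower. Tpx2, which nucleates spindle microtubules, had the highest ratio of the 16 members shown in the plot of levels, at 25.6 CPM in Pkhd1-high and 7.14 CPM in Ccnd3-high nuclei (3.58-fold; 2.03 to 6.90). Between Ccnd3-high and hepatocyte nuclei, 8 of 11 S members and 8 of 11 mitotic members were at least 2-fold higher and 2 S members, Mcm10 and E2f8, were lower, where 21.2% of all genes were higher and 10.7% lower. For Uhrf1, Cdc6, Cenpf, Ncapg and Ube2c the counting interval of the ratio to Ccnd3-high nuclei reached 1 or less. The same hepatocyte nuclei served both comparisons with them.

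Among the genes that license origins, the helicase subunit Mcm6 stood at 14.1 CPM in Pkhd1-high, 12.6 CPM in Ccnd3-high and 1.97 CPM in hepatocyte nuclei (7.15-fold from hepatocyte to Pkhd1-high; 2.35 to 35.5). Mcm7 stood at 26.7, 27.99 and 9.87 CPM in that order, with no difference between the tumour gates beyond counting error. The gene overlaps Ap4m1 and Cops6, which lie on the other strand. Mcm2 was at 4.58 and 7.14 CPM in the tumour gates and had 0 UMIs in hepatocyte nuclei. With a floor of 3 UMIs there, the Pkhd1-high level was 2.32-fold higher, and the lower bound of the counting interval was 1.745. Mcm3 and Cdt1, the loader of the ring, were 4.78-fold (1.22 to 41.2) and 5.94-fold (1.54 to 50.7) higher in Pkhd1-high than in hepatocyte nuclei, each from 2 hepatocyte UMIs. Gins2 and Cdc45, which complete the active helicase, had ratios of 1.53 (0.675 to 4.07) and 1.74 (0.598 to 6.90), both with intervals that include no difference.

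Mcm10 was the S member at least 2-fold lower in Pkhd1-high than in hepatocyte nuclei. The gene (ENSMUSG00000026669, chromosome 2, 4989714 to 5012791, minus strand, GRCm38) stood at 84.9 CPM (70.9 to 101) in hepatocyte nuclei, in 116 of 760 nuclei or 15.3%. Pkhd1-high nuclei held 10.9 CPM (8.24 to 14.1), Ccnd3-high 14.8, endothelial 11.3, stellate 10.8 and macrophage nuclei 23.2 CPM, with 28.8 CPM in free RNA. The hepatocyte level was 7.81-fold (5.67 to 10.9) that of Pkhd1-high nuclei, and 84.2 against 14.1 CPM over all UMIs. No annotated gene overlaps Mcm10, while of its neighbours Ucma had 0 UMIs in both gates, Optn stood at 252 CPM in hepatocyte and 143 CPM in Pkhd1-high nuclei and Phyh at 567 and 149 CPM. Whether reads of a neighbour reach the Mcm10 count was not tested.

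The polymerase genes Pola1 and Pole were higher in both tumour gates than in hepatocyte nuclei, but Pola1 was not particular to the tumour gates. Pola1 (chromosome X, 93304767 to 93632155) stood at 232 CPM (219 to 245) in Pkhd1-high, 155 CPM (138 to 175) in Ccnd3-high and 52.6 CPM (41.7 to 65.5) in hepatocyte nuclei. Macrophage nuclei held 170, T cell 197, stellate 105, endothelial 72.8 and fibroblast nuclei 47.2 CPM. The gene spans 327 kb, and nuclear RNA is rich in introns. Per kb of span it stood at 0.707 CPM in Pkhd1-high nuclei, beside 3.67 CPM per kb for the sliding clamp gene Pcna and 3.41 for Mcm7. Pcna was at 15.3 CPM in Pkhd1-high, 16.5 in Ccnd3-high and 5.92 CPM in hepatocyte nuclei, but at 32.4 CPM in free RNA. Pole, the leading-strand polymerase, stood at 9.16 CPM against 0.658 CPM in hepatocyte nuclei, the latter from 1 UMI (13.9-fold; 2.38 to 561).

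Nucleotide supply genes were higher in Pkhd1-high nuclei. Rrm1 and Rrm2, the subunits of ribonucleotide reductase, were 2.79-fold (1.5 to 5.77) and 4.93-fold (1.59 to 24.7) higher in Pkhd1-high than in hepatocyte nuclei. Tyms, which makes thymidylate, stood at 19.7 CPM in Pkhd1-high, 14.8 in Ccnd3-high and 4.61 CPM in hepatocyte nuclei (4.27-fold; 2.00 to 10.9). Of the chromatin genes, Hells, a remodeller that helps to keep DNA methylated, stood at 27.9, 15.4 and 5.92 CPM in that order (4.70-fold; 2.41 to 10.5), and Uhrf1, which carries methylation to the new strand, was 7.10-fold (1.87 to 60.3) higher. The fork checkpoint gene Clspn was 6.38-fold (1.66 to 54.3) and Dtl 5.22-fold (1.34 to 44.7) higher. Brip1, a helicase of crosslink repair, differed little, at 23.7 CPM in Pkhd1-high and 21.7 CPM in hepatocyte nuclei (1.09; 0.737 to 1.65).

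The E2F members did not follow 1 pattern. E2f1, an activator, stood at 7.25 and 2.63 CPM in Pkhd1-high and hepatocyte nuclei (2.76-fold; 0.992 to 10.6). E2f7 and E2f8 are repressors known for a role in hepatocyte polyploidy. E2f7 stood at 4.96 and 4.61 CPM in the thinned nuclei and at 8.31 and 2.69 CPM over all UMIs (3.09-fold; 2.15 to 4.54). E2f8 was lower in Pkhd1-high nuclei over all UMIs, at 7.44 against 14.9 CPM in hepatocyte nuclei (2.00-fold; 1.61 to 2.49), and thinned nuclei gave 5.53 against 9.87 CPM. Both lie opposite another gene, 1700020G17Rik and Gm2788.

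Condensation genes opened the mitotic list. Top2a (chromosome 11, 98992943 to 99024189) stood at 33.6 CPM (28.8 to 38.9) in Pkhd1-high, 20.3 (14.3 to 27.99) in Ccnd3-high and 4.61 CPM (1.85 to 9.49) in hepatocyte nuclei, with 38.7 CPM in macrophage, 16.5 in endothelial, 13.9 in fibroblast and 10.1 CPM in stellate nuclei. Free RNA held 25.7 CPM. Smc4, a condensin subunit, was widespread, at 64.5 CPM in Pkhd1-high, 45.0 in Ccnd3-high, 25.7 in hepatocyte, 88.9 in fibroblast, 73.4 in stellate and 106 CPM in pericyte and smooth muscle nuclei. Smc2, its partner, stood at 18.9, 14.3 and 4.61 CPM in the Pkhd1-high, Ccnd3-high and hepatocyte gates. Mki67 stood at 20.4 CPM in Pkhd1-high, 13.7 in Ccnd3-high, 1.32 in hepatocyte, 25.8 in macrophage and 9.01 CPM in endothelial nuclei, and at 19.3 CPM in free RNA.

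Kinetochore and spindle genes were low in hepatocyte nuclei. Knl1, the scaffold of the checkpoint kinases, stood at 21.6 CPM in Pkhd1-high, 13.7 in Ccnd3-high and 2.63 CPM in hepatocyte nuclei (8.19-fold; 3.11 to 30.6). The checkpoint kinases Bub1 and Bub1b were 2.61-fold (0.803 to 13.4) and 11.9-fold (2.02 to 481) higher, the kinetochore motor Cenpe 10.0-fold (2.67 to 84.3), the spindle motor Kif15 12.3-fold (3.31 to 103) and Tpx2 19.4-fold (5.27 to 162). Aspm, which works at spindle poles, had a ratio of 1.60 (0.542 to 6.37). Nusap1, which bundles spindle microtubules, had 39 UMIs in Pkhd1-high and 0 in hepatocyte nuclei. By the floor of 3 UMIs it was 3.77-fold higher, with a lower counting bound of 2.92. Of the cytokinesis genes, Ect2, which starts the contractile ring, stood at 21.4 CPM in Pkhd1-high, 11.5 in Ccnd3-high and 3.29 CPM in hepatocyte nuclei (6.50-fold; 2.70 to 20.4), and Kif20b, a motor of the last steps of division, at 16.02, 7.68 and 4.61 CPM. Prc1, Kif23 and Anln, which build the midzone and the cleavage furrow, were 12.3-fold (3.31 to 103), 7.97-fold (2.11 to 67.5) and 5.07-fold (1.90 to 19.1) higher.

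**Figure D2:**
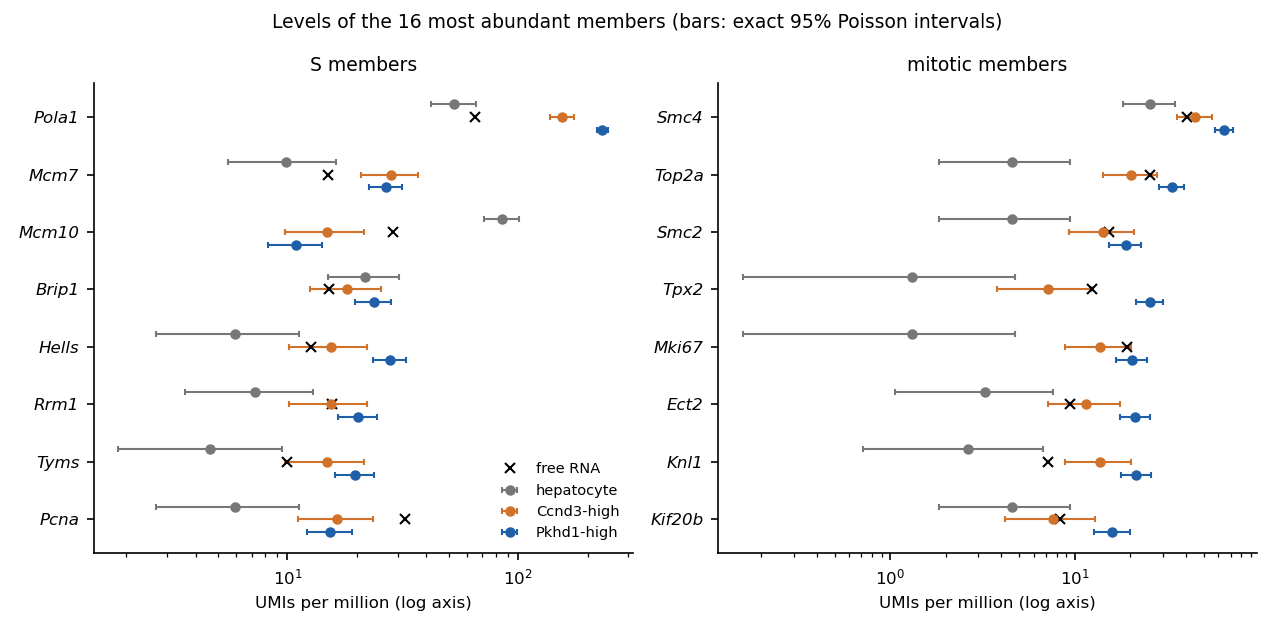
Levels in CPM (horizontal log axes) of the 8 S and 8 mitotic members with most UMIs over the gates, in hepatocyte, Ccnd3-high and Pkhd1-high nuclei thinned to 2000 UMIs, with exact 95% Poisson intervals, and in free RNA (crosses). Mcm10 stands at 84.9 CPM in hepatocyte and 10.9 CPM in Pkhd1-high nuclei, while Top2a stands at 4.61 and 33.6 CPM.

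The kinases and cyclins that drive mitosis were sparse. Cdk1 had 20 UMIs in Pkhd1-high nuclei and 1 in hepatocyte nuclei (5.80-fold; 0.928 to 240). Plk1, Ccnb1, Ccna2 and Aurkb had 7, 11, 12 and 16 UMIs in the Pkhd1-high gate. In hepatocyte nuclei they had 0, 2, 0 and 0, too few for a comparison at this depth. Over all UMIs Ccna2 was 5.23-fold (2.37 to 13.7) and Ccnb1 8.28-fold (3.03 to 31.6) higher in Pkhd1-high nuclei, on 7 and 4 hepatocyte UMIs, while the thinned ratio of Ccnb1 was 1.60 (0.348 to 14.8). Plk1 and Aurkb had 3 and 1 hepatocyte UMIs, with ratios of 6.81 (2.11 to 34.9) and 52.1 (9.07 to 2087). Ccnb2, the cyclin B2 gene, stood at 10.5 and 5.92 CPM in thinned nuclei (1.77-fold; 0.869 to 4.08) and was 4.75-fold (3.39 to 6.83) higher over all UMIs.

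Counting distinct members per nucleus set apart a small number of nuclei. In the Pkhd1-high gate 1030 nuclei held no member, 947 held 1 and 372 held 2. The number was down to 3 at 7 members and up again to 14 at 13 members, with at most 21 in a nucleus. A threshold of 8, chosen after this distribution was seen, gave 97 nuclei, or 3.70% (3.01 to 4.50) of the gate. Just outside it lay 15 nuclei with 6 or 7 members, and just inside 15 with 8 or 9. Over 20 thinning draws the number ran from 84 to 101, but it moved with the depth and the gate: 26 nuclei (1.36%) thinned to 1000 UMIs, 152 (6.29%) thinned to 4000 and 49 (2.60%) with the stricter gate. At 4000 UMIs 5 of 71 macrophage nuclei (7.04%) held 8 or more. Such nuclei are called high here, against low nuclei with at most 3 members. Ccnd3-high held 17 of them (1.87%; 1.09 to 2.97), endothelial 6, fibroblast 5, macrophage 3, hepatocyte, T cell and pericyte 1 each, and stellate, mesothelial and B cell 0. The 0 of 647 stellate nuclei allow a share of up to 0.464%, by the same limit of 3 counts.

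**Figure D3:**
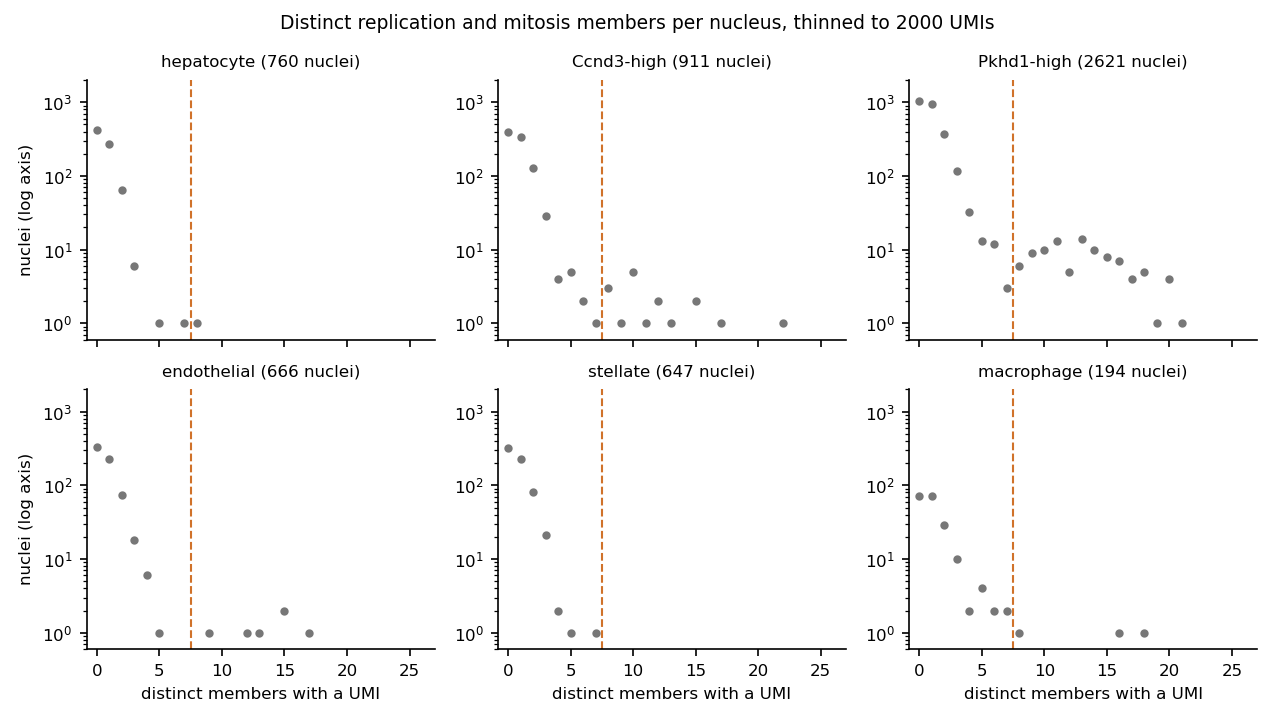
Number of nuclei (vertical log axes) by the number of distinct members with a UMI (horizontal axes), in 6 gates after thinning to 2000 UMIs; counts of 0 are not drawn, and the dashed line marks the threshold of 8. The Pkhd1-high panel shows a second rise, with 97 nuclei to the right of the line, against 17 in Ccnd3-high and 1 in hepatocyte nuclei.

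In the Pkhd1-high gate, high nuclei were more common among deeply sequenced nuclei. They made up 0.725% (0.198 to 1.85) of those with 2000 to 4000 UMIs before thinning, 2.74% (1.97 to 3.69) of those with 4000 to 10000, and 9.12% (6.89 to 11.8) of those with 10000 or more. Their median depth was 10559 UMIs against 6134 in low nuclei, although members were counted at equal depth. The hepatocyte gate, the deepest at a median of 16071 UMIs, held 1 high nucleus, which had 3653 UMIs before thinning. The part of depth in the difference between gates was not tested. Of the 97, 0 were called as doublets, and their haemoglobin level was 11.4% of free RNA against 19.9% in low nuclei. Within the gate the intervals of the share overlapped between nuclei of the Kcnj16 and Slc8a3 type (3.32%; 2.01 to 5.14), the Zfp804a and Hmga2 type (5.06%; 2.34 to 9.38) and neither (3.69%; 2.88 to 4.65).

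To see how far each member is confined to high nuclei, every member was left out in turn and nuclei were sorted by the other 52. The median share of a member's Pkhd1-high UMIs that lay in high nuclei was 32.1% for S members and 67.8% for mitotic members, and 9 of 25 S and 21 of 28 mitotic members had at least 50% there. The high nuclei were 3.70% of the gate. Among genes with 20 or more UMIs in the gate, 8 of 23 S and 18 of 24 mitotic members passed 50%, and 0.317% of the 12606 other genes did. The member left out took no part in the sorting, but all members come from the same nuclei.

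Top2a had 151 of its 176 Pkhd1-high UMIs in the 96 nuclei called high by the other members (85.8%), in 71.9% of those nuclei and in 0.729% of low nuclei. Kif23, with 90.9%, Aurkb with 87.5% and Knl1 with 83.2% were alike in this. Of the S members, E2f7 had 84.6%, Clspn 72.7%, Dtl 63.9% and Uhrf1 57.1%. The subunits Mcm2 to Mcm7 lay lower, from 8.57% for Mcm7 and 12.5% for Mcm5 to 40.5% for Mcm6. Pola1 was seen in 77.2% of high and 29.5% of low nuclei, with 15.98% of its UMIs in high nuclei, so most Pola1 UMIs came from nuclei with few other members. Smc4 was the widest of the condensation genes, in 52.6% of high and 9.14% of low nuclei. Brip1, about equal between gates, was uneven inside the gate, at 376 CPM in high and 8.71 CPM in low nuclei (43.2-fold; 29.2 to 64.7). Mcm10 was likewise higher in high nuclei, at 56.7 against 9.12 CPM (6.22-fold; 2.90 to 12.2).

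Ccnb2 (chromosome 9, 70407692 to 70421547, minus strand) stood out from the mitotic list, with 3 of its 55 UMIs in high nuclei (5.45%) and a ratio of 1.53 (0.304 to 4.72). Rnf111, on the same strand and within 5 kb, stood at 634 CPM in Pkhd1-high and 228 CPM in hepatocyte nuclei. Whether Rnf111 reads add to the Ccnb2 count was not tested. Over all UMIs of the high nuclei, Ccnb2 still stood with the mitotic members in the split described next.

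The high nuclei spanned both lists. Of the 97, 12 had at least 75% of their member UMIs from S members, 28 had at most 25%, and 57 lay between, with a median of 7 S and 11 mitotic UMIs. When the high nuclei were sorted at the median S share of the other members, without Pola1, into 48 nuclei on the S side and 49 on the mitotic side, all 25 S members were higher on the S side over all UMIs and all 28 mitotic members on the mitotic side. The interval excluded no difference for 16 S and 27 mitotic members. Of 7996 other genes with 20 or more UMIs in these nuclei, 49.6% were higher on the S side and 50.4% on the mitotic side, with intervals excluding no difference for 8.02 and 7.48%. This order was made from the same nuclei and describes them. Mcm6 showed the widest S ratio, at 255 CPM on the S side and 58.2 CPM on the mitotic side (4.38-fold; 2.99 to 6.58), followed by E2f1 at 3.49-fold (2.06 to 6.19) and Uhrf1 at 3.26-fold (2.11 to 5.20). Rrm2 and Mcm2 were nearly even, each at a ratio of 1.09. On the mitotic side Ube2c, which tags cyclins for destruction, was 10.8-fold (3.95 to 41.3) higher, the kinetochore gene Cenpf 8.46-fold (4.40 to 18.2), Plk1 7.36-fold (1.73 to 65.9), Ccnb1 5.15-fold (1.96 to 17.1) and Cenpe 4.35-fold (3.17 to 6.07). The least one-sided mitotic members were Kif15, at 1.53-fold (1.22 to 1.92), the checkpoint kinase Bub1, at 1.66-fold (1.14 to 2.43), and the kinase Aurkb, at 1.71-fold (0.997 to 3.02). Ncapg followed at 1.74-fold (1.16 to 2.65) and Mki67 at 1.92-fold (1.57 to 2.36).

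**Figure D4:**
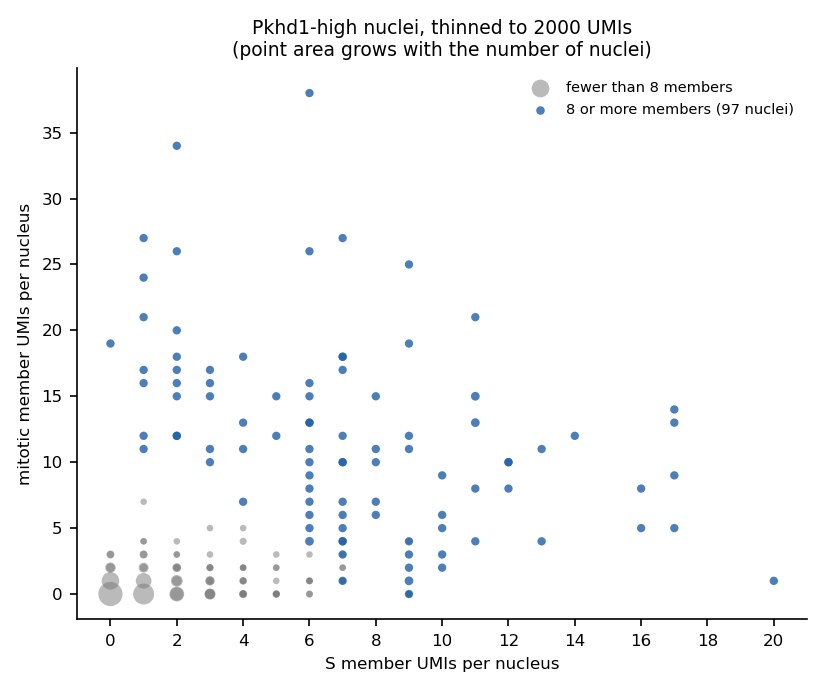
S member UMIs (horizontal axis) against mitotic member UMIs (vertical axis) in Pkhd1-high nuclei thinned to 2000 UMIs, with high nuclei in blue and others in grey; point area grows with the number of nuclei at a position. The 97 high nuclei hold 0 to 20 S UMIs and 0 to 38 mitotic UMIs each, and 57 of them have mixed content.

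**Figure D5:**
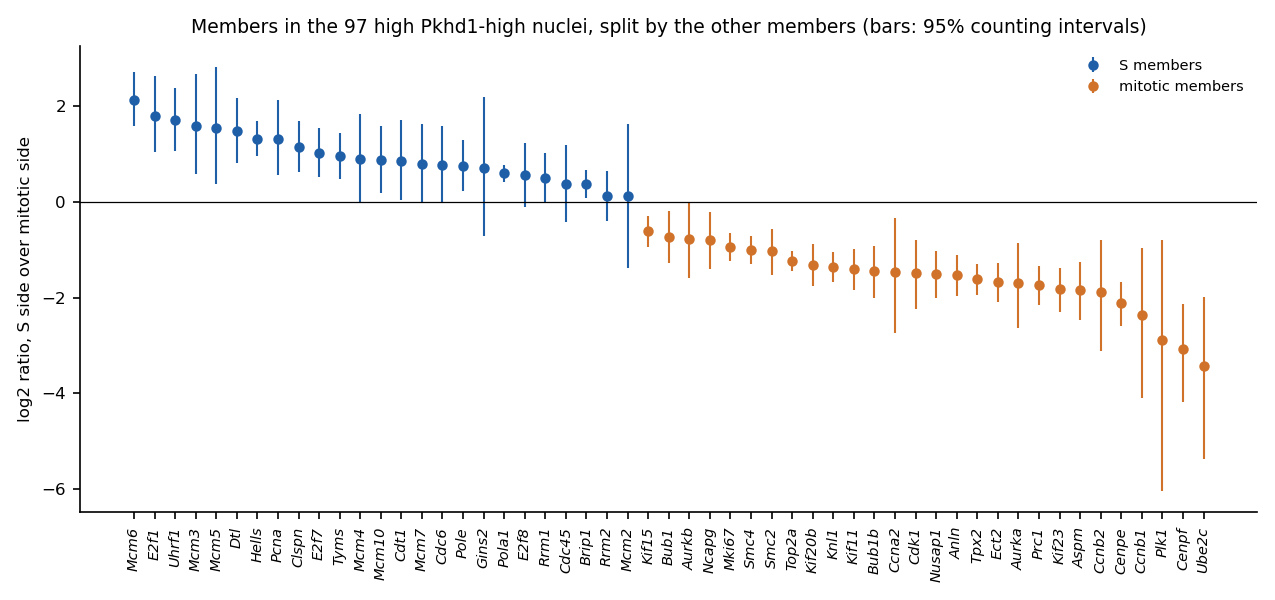
Log2 ratio (vertical axis) of each member's level over all UMIs on the S side against the mitotic side of the 97 high nuclei, for S members (blue) and mitotic members (orange), ordered by value, with 95% counting intervals. All 25 S members lie above 0 and all 28 mitotic members below, from Mcm6 at a 4.38-fold ratio to Ube2c at 10.8-fold the other way.

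The other gates held few high nuclei. The 6 endothelial high nuclei had a median S share of 10.9%, with 9 to 25 mitotic UMIs each, and 4 of them had at most 25% S UMIs, and the 5 fibroblast ones a median of 16.7%. The 3 macrophage high nuclei had 40.0 to 73.3% S UMIs. The 17 Ccnd3-high ones had a median of 42.1%, like the Pkhd1-high ones, and 12 of them lay between 25 and 75%. These numbers are too small to compare.

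A large number of high nuclei had no gate. Of the 2838 nuclei that passed no list, 70 were high (2.47%; 1.93 to 3.11). Their Pkhd1-high marker genes summed to 1879 CPM against 878 CPM in the low nuclei of that class, their Ccnd3-high marker genes to 2279 against 1707 CPM, and their hepatocyte markers to 3100 against 7870 CPM. Macrophage markers stood at 407 against 273 CPM, sinusoidal endothelial markers at 214 against 88.9 CPM and the wider endothelial list at 307 against 202 CPM. T cell and B cell lists were also higher, at 50 against 27.1 and 64.3 against 31.2 CPM, while Kupffer, stellate and fibroblast lists were lower. In free RNA the Pkhd1-high, Ccnd3-high, hepatocyte, macrophage and sinusoidal endothelial lists summed to 790, 1038, 7742, 574 and 210 CPM. The gated shares therefore leave out high nuclei whose markers did not pass.

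The other genes of the pathway followed the members. In Pkhd1-high against hepatocyte nuclei, 29 of 49 genes of late replication, repair and chromatin with enough UMIs were at least 2-fold higher and 0 lower, and 42 of 50 mitosis and cytokinesis genes were higher and 1 lower, beside the 26.2 and 12.6% of all genes given above. Bard1, the partner of Brca1 in repair, had 82 UMIs in Pkhd1-high and 0 in hepatocyte nuclei. By the floor it was 7.93-fold higher, with a lower counting bound of 6.30. Cks2, a small partner of the mitotic kinases, was the lower one, at 11.8 against 25.7 CPM. In high against low Pkhd1-high nuclei, 45 of 45 and 48 of 48 genes of these lists with enough UMIs were at least 2-fold higher, where 9.27% of all genes were higher and 19.3% lower. Exo1, Bard1, Rad51ap1 and Fanci led the first list, at 81.3, 77.5, 61.7 and 33.9-fold. Iqgap3 and Ckap2l, at 686-fold (113 to 28080) and 305-fold (75.7 to 2661), were among the leading genes of the second list. Iqgap3 and Ckap2l had 28 and 29 UMIs in the whole Pkhd1-high gate. The UMI minimum is counted over both groups, so a gene could pass it through the high nuclei alone. The counts of 45 and 48 genes therefore describe these lists and support nothing further.

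Inside the gate Ccnd3, the marker of the tumour gates, stood at 2320 CPM in high and 5962 CPM in low nuclei. It was 2.57-fold (2.34 to 2.83) lower in high nuclei, while Cdk2, the S-phase kinase, was 3.51-fold (1.80 to 6.30) higher. The 20 brake genes with enough UMIs belonged to a list that summed 1.60-fold (1.42 to 1.80) higher in high nuclei, and 5 of them were at least 2-fold higher, among them Rbl1, the pocket protein p107, at 273 against 13.2 CPM (20.7-fold; 14.1 to 30.2), and the inhibitors Cdkn2b (12.7-fold; 4.34 to 33.6), Cdkn2c (7.26-fold; 2.86 to 16.3), Cdkn2a (5.98-fold; 1.46 to 18.3) and Cdkn1a (2.25-fold; 1.17 to 3.96), while Gadd45a had 0 UMIs in high nuclei, too few for a fold. Of the 20 brake genes 14 lay between the 2-fold marks and 1 was lower, where 9.27% of all genes were higher and 19.3% lower. Their median log2 ratio was 0.35, against -0.10 for all genes. Rbl1 alone gave 273 of the list's 1490 CPM in high nuclei, and 13.2 of its 931 CPM in low nuclei. The hypoxia list summed to 2134 CPM in high and 2899 CPM in low nuclei, a ratio of 0.736 (0.666 to 0.812). Of its 11 genes 3 were past the 2-fold mark downward, of which Car9 and Ankrd37 had 0 UMIs in high nuclei, too few for a fold, and Bnip3, a mitophagy gene, was 2.92-fold (1.53 to 6.42) lower. These 3 of 11 stand beside the 19.3% of all genes that were lower in this comparison. Pkhd1 itself stood at 2428 CPM in high and 3807 CPM in low nuclei. Depth before thinning differed between these nuclei as given above, and its part in these differences was not tested.

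The broader class of nuclei that held 3 or more members, 272 in number, was set against the 1030 with none. There 38 of 40 replication and 42 of 43 mitosis genes were at least 2-fold higher, and 439 of 10823 genes in all. The background was 4.06% higher and 4.69% lower. Exo1 and Ckap2l, with 26 and 27 UMIs against 0, were among the genes that passed the minimum through the broader class alone. In this class 2 of 17 brake genes were higher, Rbl1 at 13.2-fold (8.01 to 22.5) and Cdkn2c at 2.84-fold (1.23 to 6.40), while Cdkn1a had a ratio of 1.58 (0.948 to 2.56). Ccnd3 was 1.67-fold (1.60 to 1.75) lower, the hypoxia list summed to a ratio of 0.903 (0.851 to 0.958) with 1 of 11 genes lower, and Bnip3 was 1.64-fold (1.20 to 2.28) lower.

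The members lie on 17 chromosomes. By the GENCODE annotation of GRCm38, 12 of the 53 overlap another gene, 1 of them, Anln, on the same strand, and counts of such members may hold reads of the other gene where strand or exon use was not kept apart.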

How the data were processed

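Nuclear RNA of frozen mouse liver was measured with 10x Genomics 3' libraries. Per the labels and the submitters' processing notes, the authors used Cell Ranger 5.0 and mm10, and the deposited values are UMI counts per gene and barcode, with no normalization; the file header of the unfiltered matrix names version 4. Barcodes with at least 500 UMIs, 300 genes and at most 5% mitochondrial UMIs were kept (16411 of 17169), and the 9632 with at least 2000 UMIs were thinned to 2000 (seed 1; Python 3.11.15, numpy 2.4.6, scipy 1.17.1). The deposited barcodes held 95130408 UMIs in all, 891 to 125991 each (median 2794). A marker list passed where its UMIs exceeded the free RNA expectation (Poisson tail under 0.001) with at least 3 UMIs of at least 2 markers; free RNA came from 49929 uncalled barcodes with 500 to 850 UMIs. Scrublet (scanpy 1.11.5) called 323 doublets, which were kept and left out as an alternative. Folds are ratios of CPM with no pseudocount, called at 2-fold for genes with 20 or more UMIs. Intervals cover counting error only. With 1 pooled sample no test was run, and nuclei were not used as replicates. Members, gene lists and the rule for naming (the 8 S and 8 mitotic members with most UMIs, up to 4 genes a list by ratio) were chosen with earlier results of these data known; the threshold of 8 members and the 20 draws were added after seeing the data. The counting and thinning were tested on simulated data. Alternatives were other depths, another seed, stricter gates, fewer mitochondrial UMIs, other UMI minimums, no thinning, free RNA subtracted, and sums without the most abundant member.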

Additional observations from a re-analysis of the deposited data

How the results depend on the processing

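In every setting run, S and mitotic members summed higher in Pkhd1-high than in hepatocyte nuclei, and the share of nuclei with at least 2 members of a list was higher there. Thinned to 1000 UMIs, the shares with 2 S members were 2.31% of hepatocyte, 4.23% of Ccnd3-high and 5.90% of Pkhd1-high nuclei, the shares with 2 mitotic members 1.97% of Ccnd3-high and 3.65% of Pkhd1-high nuclei, the summed ratios 1.67 for S and 2.58 for mitotic members, and the members at least 2-fold higher 11 in Pkhd1-high and 4 in Ccnd3-high against hepatocyte nuclei, with 27 pathway genes. Thinned to 4000 UMIs, the shares were 20.6, 23.2 and 31.4% for S members in that order, 11.4 and 14.2% for mitotic members in Ccnd3-high and Pkhd1-high nuclei, and the mitotic ratio 6.60. Depth sets these shares by construction. Another seed gave 7.46% of hepatocyte nuclei with 2 S members (median of 20 draws 7.18%), 0.771% with 2 mitotic members and 10 members higher in Ccnd3-high nuclei. The stricter gate gave 5.42% of Pkhd1-high nuclei with 2 mitotic members, 8 members higher in Ccnd3-high nuclei and 42 pathway genes, where the main count was 71. At most 1% mitochondrial UMIs gave 0.729% of hepatocyte nuclei with 2 mitotic members and a mitotic ratio of 6.31. Without thinning the mitotic ratio was 7.98 and 39 members were higher in Ccnd3-high nuclei. With the free RNA share taken out the ratios were 2.45 for S and 8.98 for mitotic members, and without the most abundant member 1.46 and 6.23. A minimum of 50 UMIs left 22 members higher in Pkhd1-high and 2 in Ccnd3-high nuclei, 30 pathway genes and 163 genes in nuclei with 3 or more members, and a minimum of 1 UMI gave 39 in Ccnd3-high nuclei and 2156 genes. The 8-member threshold gave 1162 genes in place of 439. Pcna turned to a log2 ratio of -0.55 thinned to 1000 UMIs and Kif20b to -0.48 under the stricter gate. The hepatocyte gate held 477 nuclei thinned to 1000 UMIs and 104 under the stricter gate, where it held 760 in the main setting. The cause of both turns was not tested. Of the other values of single members, 76 kept within their counting interval and 13 moved beyond it. No paired analysis was possible because no barcode is tied to a sample, and no replicate could be left out.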

Other observations

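Outside the members and the lists, and among genes with at least 50 UMIs over both groups, those with the largest ratio of Pkhd1-high nuclei with 3 or more members to those with none were Parpbp (73.2-fold; 23.8 to 365), Lockd (62.9-fold; 25.9 to 199), Cenph (15.5-fold; 8.11 to 31.9), Zgrf1 (14.1-fold), Mms22l (12.7-fold), Ccnf (12.7-fold), Atad5 (9.97-fold), Slfn9 (6.40-fold), Wdr76 (6.03-fold) and Dna2 (6.0-fold). Lockd is a noncoding RNA made beside the inhibitor gene Cdkn1b, Cenph encodes a kinetochore subunit, Mms22l and Atad5 act at stalled or unloading forks, Ccnf encodes cyclin F and Dna2 a nuclease of replication. In free RNA they stood at 3.96 CPM for Parpbp to 25.2 CPM for Dna2. A gene could pass the minimum of 50 UMIs through the first group alone, as Parpbp did with 58 against 3 UMIs. Against the threshold of 8 members, Lockd stood at 402 CPM in high and 2.44 CPM in low nuclei (165-fold; 89.4 to 333) and Parpbp at 278 and 2.44 CPM (114-fold; 60.4 to 235).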
